A study of Drosophila melanogaster with 30 samples.

Results

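The control group of the series, 3 libraries of photoreceptors that expressed a short hairpin RNA (shRNA) against LexA, was set against the mean of 7 of its knockdown groups. The hairpins of those groups were directed against cnc, Cdk12, Spt6, Taf1, TH1, Top1 or Trl. With 3 libraries each, they gave 21 libraries, so that 24 of the 30 libraries of the series entered the comparison, and each knockdown group had the same weight in the mean. The libraries of Spt5 and dom, the groups left aside, entered only the estimate of the spread. Libraries were assigned to groups by the sample titles, and the choice of the groups compared was made with earlier results of these data known.

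All groups carried Rh1-Gal4 and Rh1-GFPKASH, and the hairpin ran under Gal4 (Rh1-Gal4>sh-LexA in the controls, and sh- with the target's name in the others). The Rh1 driver is active in outer photoreceptors, and the KASH domain places GFP on their nuclear envelope, by which nuclei were pulled out with an antibody. Flies were male and were taken at day 30, after life at 25 C in a cycle of 12 h light and 12 h dark. LexA is a bacterial gene that flies lack, so its hairpin passes through the RNA interference machinery without a fly target. The titles name 1 hairpin per group; genotype labels of 5 groups (Cdk12, Spt6, Taf1, TH1 and Top1) carry a number that runs on with the replicate and were set aside. Any other difference between the fly stocks of 2 groups cannot be told apart from the hairpin. The replicates are labelled biological, without saying whether they were separate crosses or days, and p-values measure only the spread between these samples.

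Outer photoreceptors detect light with the rhodopsin Rh1, the product of ninaE, which acts through a G protein, the phospholipase C norpA and the channels trp and trpl. The 7 targets act in the nucleus. Spt6 is a histone chaperone that travels with RNA polymerase II, TH1 a subunit of the pausing factor NELF, Cdk12 a kinase of the polymerase tail and Taf1 the largest subunit of TFIID. Top1 relaxes DNA supercoils, Trl binds GA-rich promoters, and cnc is a transcription factor of the oxidative stress response.

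With LexA set against each target's own group, none of the 7 targets was called by edgeR, and only Trl had an unadjusted p under 0.05. The log2 fold changes ran from -0.67 for Trl (SE 0.274, adjusted p 0.13), which was not lower in its own group, to 0.41 for Taf1 (SE 0.258, adjusted p 1). Nuclear RNA therefore gives no check of the knockdown labels. Gene counts were 6174833, 7184260 and 5413749 in LexA replicates 1, 2 and 3, and lay between 4064250 and 18024440 in the 21 knockdown libraries. The 8 outer photoreceptor markers summed to 71390, 77030 and 70700 CPM in LexA, where CPM are counts scaled to a common library size. In the knockdown libraries they summed to 37520 at the lowest, 65410 at the median and 105700 at the highest, and none was near 0. In bulk nuclei, fewer cells of a type and less RNA per cell cannot be told apart. LexA replicate 2 lay further from the mean of the knockdown groups than its fellows, by a median absolute log2 difference of 0.43, against 0.28 in replicate 1 and 0.31 in replicate 3. It had 14479 genes with at least 1 count, against 15646 and 15705 in the other LexA libraries. Reads of the Gal4 transgene, scaled to gene counts, stood at 3501, 3463 and 7679 CPM in LexA and between 2074 and 11032 CPM in the knockdown libraries. LexA replicate 3 lay above all 18 knockdown libraries outside Cdk12, whose highest value was 6180 CPM. The Cdk12 libraries stood at 6484 to 11032 CPM, and had 72.9 to 82.6 reads aligned to several places per 100 gene counts, against 12.8 to 33.0 in the other knockdown libraries and 17.7 to 21.7 in LexA. Trl replicates 1 and 2 had 134 and 172 reads outside features per 100 gene counts. The other libraries of the comparison had 61.2 to 108, and Trl replicate 2 also had the lowest gene count. Some circadian clock genes spread widely over the knockdown libraries. At the lowest, median and highest of these, tim stood at 129, 347 and 7129 CPM and Pdp1 at 421, 707 and 6693 CPM. In LexA, tim stood at 376 to 1062 CPM and Pdp1 at 748 to 1452 CPM. The part of these library differences in the results was not tested, except by leaving libraries out and by a covariate of reads outside features.

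Few genes set the LexA libraries apart from the mean of the 7 knockdown groups. With edgeR's quasi-likelihood test and Benjamini-Hochberg adjustment, 26 of the 14888 tested genes (0.175%) were called at an adjusted p under 0.05. Of these, 23 (0.154%) were higher in LexA, by log2 fold changes of 0.74 to 4.80, and 3 (0.0202%) were lower, by -1.43 to -2.45. An unadjusted p under 0.05 was reached by 1008 genes (6.77%), 588 of them higher in LexA (3.95%) and 420 lower (2.82%). The median log2 fold change of all tested genes was 0.02. The count was 19 without LexA replicate 1, 11 without replicate 2 and 15 without replicate 3. In a fit of the 24 libraries without Spt5 and dom it was 43 with the groups kept apart, and 6 with the 21 knockdown libraries as 1 group, whose spread then includes that between knockdowns. The count of lower genes was 5 without Spt6 replicate 1 or without TH1 replicate 3.

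The clearest difference was a pair of neighbouring genes on chromosome arm 2R. Csgalnact encodes a transferase that adds N-acetylgalactosamine in the synthesis of chondroitin sulfate, and lies at 2R:10249220-10255495 on the plus strand (build BDGP6). Its level was 72.8, 73.2 and 97.8 CPM in LexA replicates 1, 2 and 3, against 8.55 at the lowest, 13 at the median and 18.3 CPM at the highest in the 21 knockdown libraries. All 3 LexA libraries lay above every knockdown library, and the knockdown libraries differed little from each other. The means were 81.3 ± 14.4 CPM in LexA (SD, n = 3) and 13.3 ± 1.72 CPM over the knockdown groups (SD of 7 group means). In edgeR's test the log2 fold change was 2.62 with a standard error (SE) of 0.145 and an adjusted p of 8.5e-13.

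CG12911, a protein-coding gene at 2R:10256686-10261276, starts 1191 bases beyond the end of Csgalnact on the same strand. It stood at 69.1, 61.3 and 90.7 CPM in the LexA libraries, against 0.606, 2.35 and 7.76 CPM at the lowest, median and highest knockdown library. LexA was again above every knockdown library, and its mean was 13.9 times that of Trl, the nearest group. By edgeR it was higher by 4.80 on the log2 scale (SE 0.268, adjusted p 8.5e-13). Both genes were also called in LexA against each of the 7 knockdown groups singly, with log2 fold changes of 2.36 (Spt6) to 2.88 (Trl) for Csgalnact and of 3.81 (Trl) to 6.06 (cnc) for CG12911. The groups outside the comparison stood with the knockdowns, at mean levels of 13.7 (Spt5) and 15.4 CPM (dom) for Csgalnact and of 2.6 and 5.06 CPM for CG12911.

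No difference was called in the other tested genes around this pair. Some were measured too imprecisely to show one, such as CG12209 (log2 fold change -0.67, SE 0.778) and lncRNA:CR45265 (0.48, SE 0.811). Of the 6 tested genes on each side of Csgalnact, CG12911 alone was called. Syb, which overlaps Csgalnact on the other strand, had a log2 fold change of 0.13 (SE 0.193), and CG12914, which overlaps it on its own strand, was under 1 CPM in each LexA library. CG12910, which starts 15.8 kb from the start of Csgalnact, had 0.14 (SE 0.251), and the histidine decarboxylase gene Hdc, 11.2 kb before it, -0.18 (SE 0.238).

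**Figure D1:**
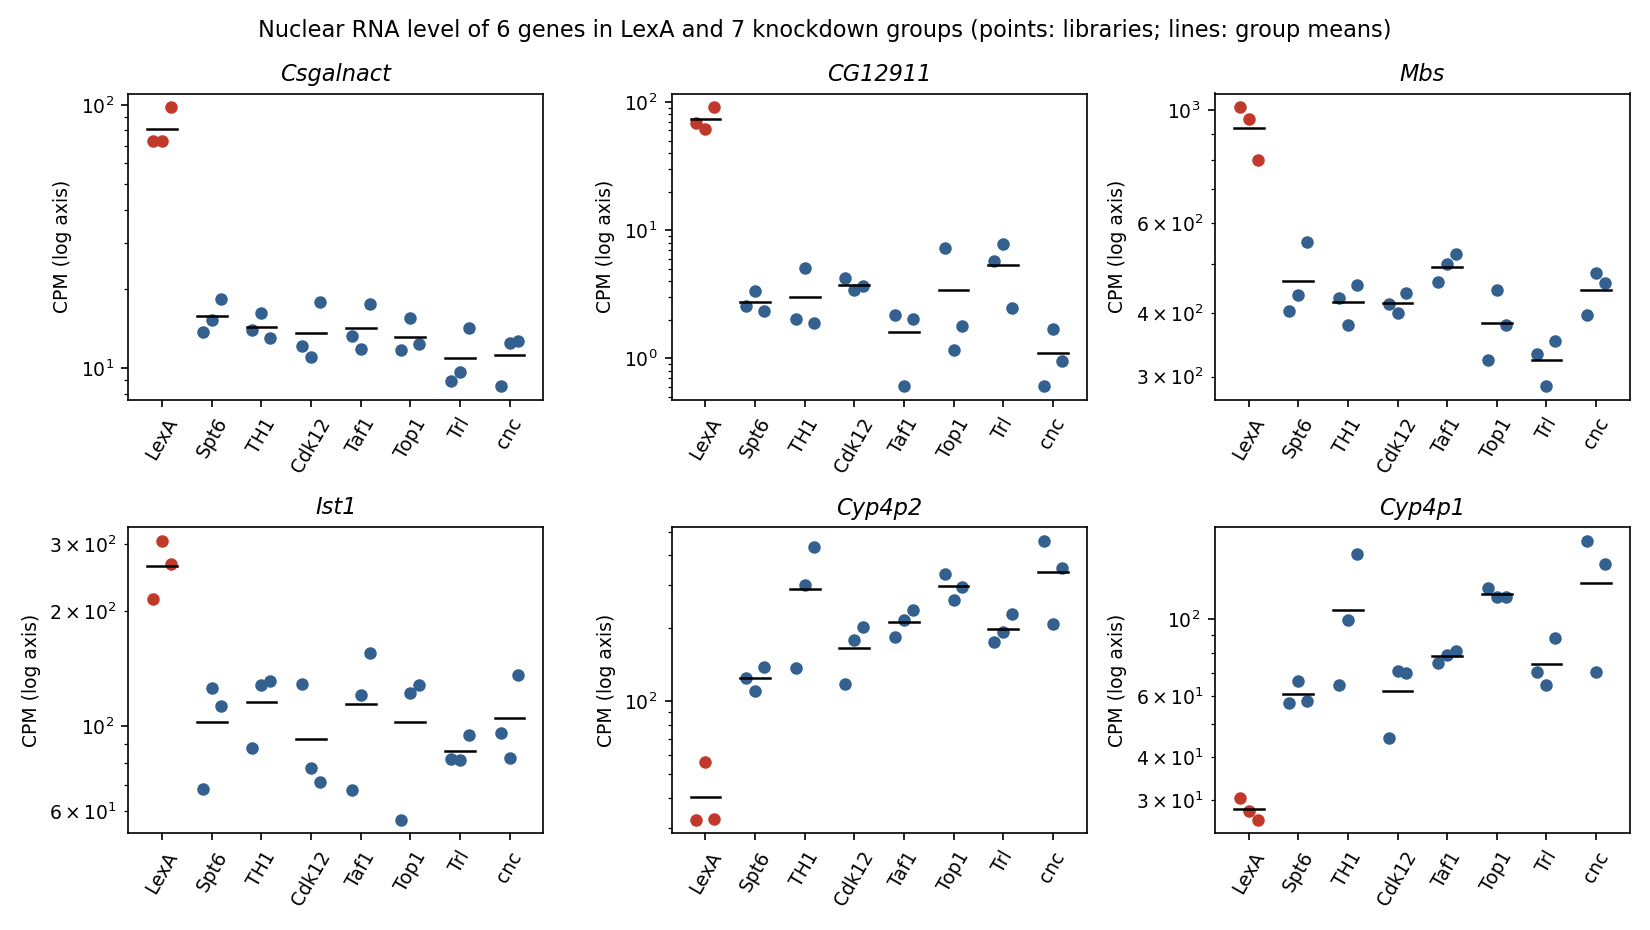
CPM (log axis) of 6 called genes in each library (points), with group means (lines), for LexA (red, left) and the 7 knockdown groups (blue). The LexA points lie above all 21 knockdown libraries for Csgalnact, CG12911, Mbs and Ist1 and below all 21 for Cyp4p2 and Cyp4p1.

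Mbs, the subunit that brings myosin phosphatase to myosin, was the third gene called against every knockdown group. It is at 3L:16051959-16082026. Its level was 1013, 963 and 797.5 CPM in the LexA libraries, against 287, 428 and 552 CPM at the lowest, median and highest knockdown library. The ranges did not overlap, and the lowest LexA value was replicate 3. The log2 fold change was 1.15 (SE 0.119, adjusted p 1.3e-06 by edgeR), and single comparisons gave 0.91 (Taf1) to 1.51 (Trl). The mean of LexA was 1.87 times that of Taf1, the nearest group. Mbs overlaps no other annotated gene, and none of the 6 tested genes on either side was called.

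Ist1, whose product works with the ESCRT machinery in endosomal sorting, stood at 215, 306 and 266 CPM in LexA, against 57.0, 95.9 and 155 CPM at the lowest, median and highest knockdown library. The LexA libraries lay above all 21 (log2 fold change 1.36, SE 0.209, adjusted p 8.9e-04 by edgeR). Without LexA replicate 2 the adjusted p was 0.055. dom, outside the comparison, averaged 273 CPM, as against 262 CPM in LexA.

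dpr21 belongs to the Dpr family of immunoglobulin-domain proteins, which recognise DIP proteins at synapses. It stood at 77.4, 119 and 86.6 CPM in LexA, against 9.38, 22.0 and 71.9 CPM at the lowest, median and highest knockdown library. LexA was above every knockdown library, but the knockdown groups themselves were split, with means of 64.9 CPM in Spt6 and 61.9 CPM in Cdk12 and of 12.8 to 26 CPM in the other 5. The log2 fold change was 1.84 (SE 0.236, adjusted p 7.2e-05 by edgeR), and 0.54 (adjusted p 0.79) against Spt6 alone. With the 21 libraries as 1 group, the adjusted p was 0.61.

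The genes lower in LexA were led by cytochromes P450 that lie side by side on 2R, enzymes of a class that oxidises lipids and foreign compounds. Cyp4p2 (2R:9237512-9239831) stood at 32.5, 56.0 and 32.5 CPM in the LexA libraries, against 110, 209 and 457 CPM at the lowest, median and highest knockdown library. Cyp4p1 (2R:9240041-9242139), 210 bases further on the same strand, stood at 30.5, 28 and 26.4 CPM in LexA, against 45.5, 74.6 and 168 CPM. For both genes all 3 LexA libraries lay below every knockdown library.

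By edgeR, the log2 fold change was -2.45 (SE 0.322, adjusted p 9.1e-05) for Cyp4p2 and -1.60 (SE 0.235, adjusted p 4.8e-04) for Cyp4p1. With the 21 libraries as 1 group, Cyp4p2 was called and Cyp4p1 was not (adjusted p 0.069). Against single groups Cyp4p2 ranged from -1.62 (Spt6, adjusted p 0.086) to -3.07 (cnc, adjusted p 2.6e-05). Cyp4p3, the next gene of this cluster, stood at 3.79, 3.54 and 7.30 CPM in LexA, against 5.99, 9.32 and 18.3 CPM at the lowest, median and highest knockdown library, and was not called (log2 fold change -1.01, SE 0.267, adjusted p 0.19). Outside the comparison, Spt5 averaged 45.7 CPM and dom 402.5 CPM for Cyp4p2, so the low level was not seen in LexA alone.

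The 3 P450 genes lie inside hig, on its opposite strand. hig encodes a secreted protein of cholinergic synapses and was called in the other direction. It stood at 262, 258 and 353 CPM in LexA, against 74.9, 146 and 276 CPM at the lowest, median and highest knockdown library, so the groups overlapped. It was called at 0.93 on the log2 scale (SE 0.201, adjusted p 0.046 by edgeR). The call was lost without any 1 of the LexA libraries or any 1 of the 21 knockdown libraries, and was kept in only 11 of 41 alternative settings. The strand setting of the counting is not given in the sources used here, so reads of hig and of the P450 genes on the other strand cannot be told apart.

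**Figure D2:**
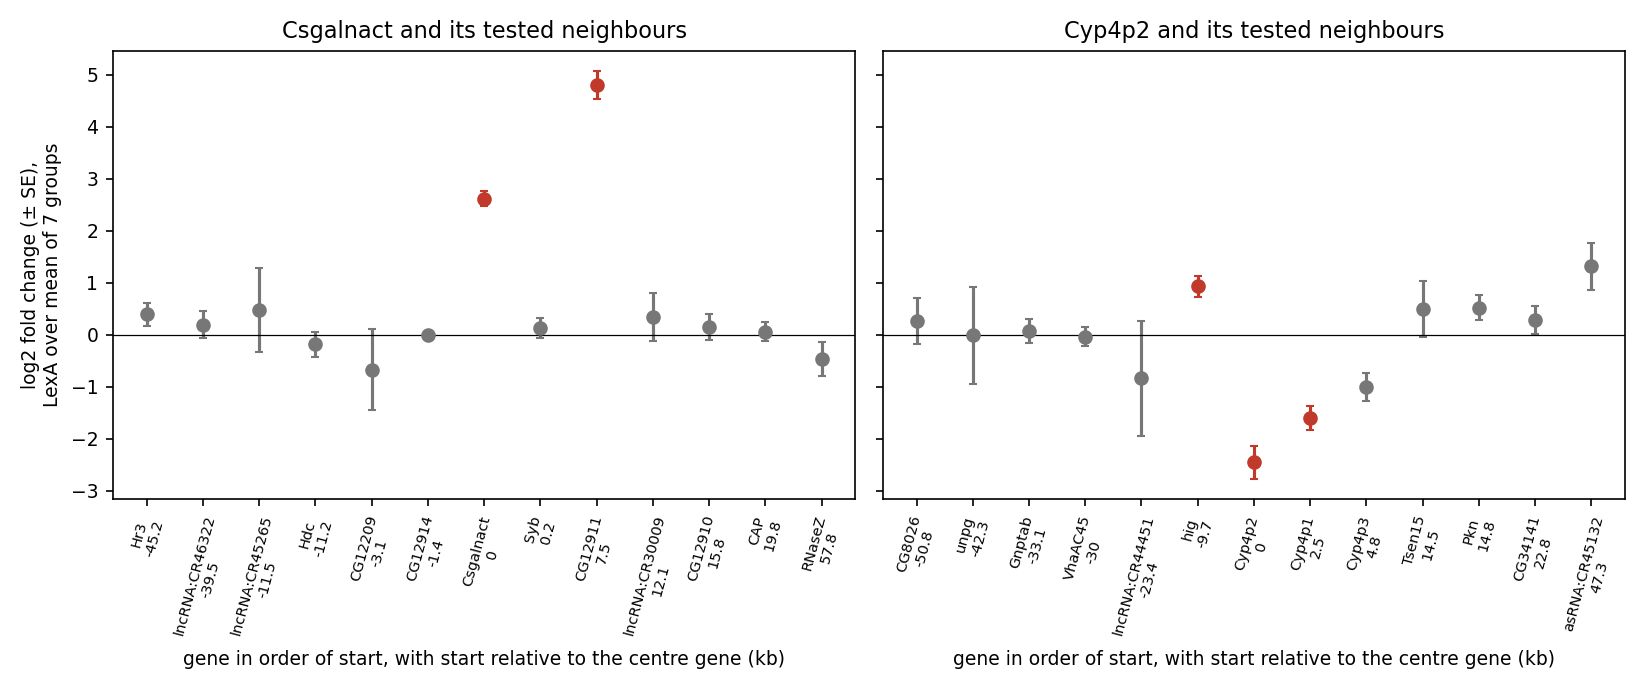
Log2 fold change of LexA over the mean of the 7 knockdown groups (points, bars ± SE) for Csgalnact and Cyp4p2 and the 6 tested genes on each side, in order of start, with the distance of starts in kb. Called genes are red: Csgalnact (2.62) and CG12911 (4.80) on the left, and hig (0.93), Cyp4p2 (-2.45) and Cyp4p1 (-1.60) on the right. No bar is drawn for CG12914, whose fold change is too near 0 for an SE.

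Rgk2, a small GTPase of the RGK family, was the third gene lower in LexA, at 16.2, 14.3 and 11.2 CPM, against 13.3, 44.6 and 112 CPM at the lowest, median and highest knockdown library. Cdk12 (mean 15.2 CPM) and Taf1 (mean 15.9 CPM) stood as low as LexA, while the other knockdown groups averaged 45.8 to 67.1 CPM. The log2 fold change against the mean was -1.43 (SE 0.296, adjusted p 0.029 by edgeR), and the call was lost without any 1 of the LexA libraries. Against Cdk12 alone it was -0.12 (adjusted p 0.98).

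Trim9, an E3 ubiquitin ligase of axon guidance, stood at 30.9, 34.2 and 33.9 CPM in LexA, against 10.1, 16.0 and 30.0 CPM at the lowest, median and highest knockdown library, just clear of the highest. Its log2 fold change was 0.96 (SE 0.167, adjusted p 0.0040 by edgeR), and the call was lost without LexA replicate 2 or 3. The call was also lost with the 21 libraries as 1 group (adjusted p 0.42) and with Spt5 and dom added to the mean. Outside the comparison, Spt5 averaged 40.2 CPM and dom 29.2 CPM, as against 33 CPM in LexA. tun stood at 82.9, 86.6 and 78.1 CPM, against 29.9, 47.0 and 62.2 CPM, again with no overlap (0.83, SE 0.149, adjusted p 0.0057). Its call was lost without any 1 of the LexA libraries but stood with the 21 libraries as 1 group (adjusted p 0.041).

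snRNA:U7, the small RNA that guides the 3′ end processing of histone messengers, stood at 17.7, 9.21 and 18.5 CPM in LexA, against 0.136, 2.19 and 12.5 CPM at the lowest, median and highest knockdown library. The groups overlapped, since Cdk12 averaged 11 CPM, and dom averaged 21.1 CPM. The log2 fold change was 2.5 (SE 0.394, adjusted p 0.0012 by edgeR). Uhg5, a host gene of small nucleolar RNAs, stood at 15, 8.15 and 17.0 CPM, against 1.49, 4.28 and 12.6 CPM (1.60, SE 0.319, adjusted p 0.018), also with overlap, and lost its call without LexA replicate 1 or 3. Both RNAs lie in or around other annotated genes on the same strand, snRNA:U7 within Eip63E and Uhg5 around 11 small nucleolar RNA genes.

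The remaining called genes were mostly known only by number. They were CG10936 (1.53), lncRNA:CR43682 (2.02), CG6912 (1.57), lncRNA:CR45997 (1.48), CG43428 (1.46), lncRNA:TS6 (1.19), lncRNA:CR43242 (1.05), CG11317 (1.04), CG17321 (0.98), CG10341 (0.89), CG40191 (0.84), FBgn0051713 (0.84) and CG2767 (0.74), each with its log2 fold change, all higher in LexA. Of these, CG10936 and lncRNA:TS6 lay above all 21 knockdown libraries. CG11317 and FBgn0051713 kept their call in only 12 and 13 of 41 alternative settings. For CG40191, CG6912 and CG2767 a knockdown group had a higher mean than LexA, with 139 CPM in Spt6 against 115 CPM in LexA for CG40191. lncRNA:CR45997 averaged 76.1 CPM in LexA, 68.8 CPM in Spt6 and 68.2 CPM in Taf1. Its log2 fold change was 0.14 against Spt6 alone and 0.16 against Taf1 alone.

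In 14 of the 26 called genes Spt6 had the knockdown mean furthest in the direction of the call, and in 7 it was Cdk12. In CG40191, CG6912 and CG2767 that mean lay beyond LexA. The same count over all tested genes was not made. LexA was the outermost of the 8 groups in 23 genes, and of all 10 groups in 19. All 3 LexA libraries lay beyond all 21 knockdown libraries in 11 called genes, 9 above and 2 below, and the other 15 overlapped. Over all tested genes, 33 (0.222%) had every LexA library beyond the 21 knockdown libraries, 20 of them above (0.134%) and 13 below (0.0873%). All 3 LexA libraries lay beyond the 7 group means in 15 of the called genes. Over all tested genes they lay above them in 268 (1.8%) and below them in 327 (2.2%). The calls and these counts come from the same values, and neither supports the other.

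**Figure D3:**
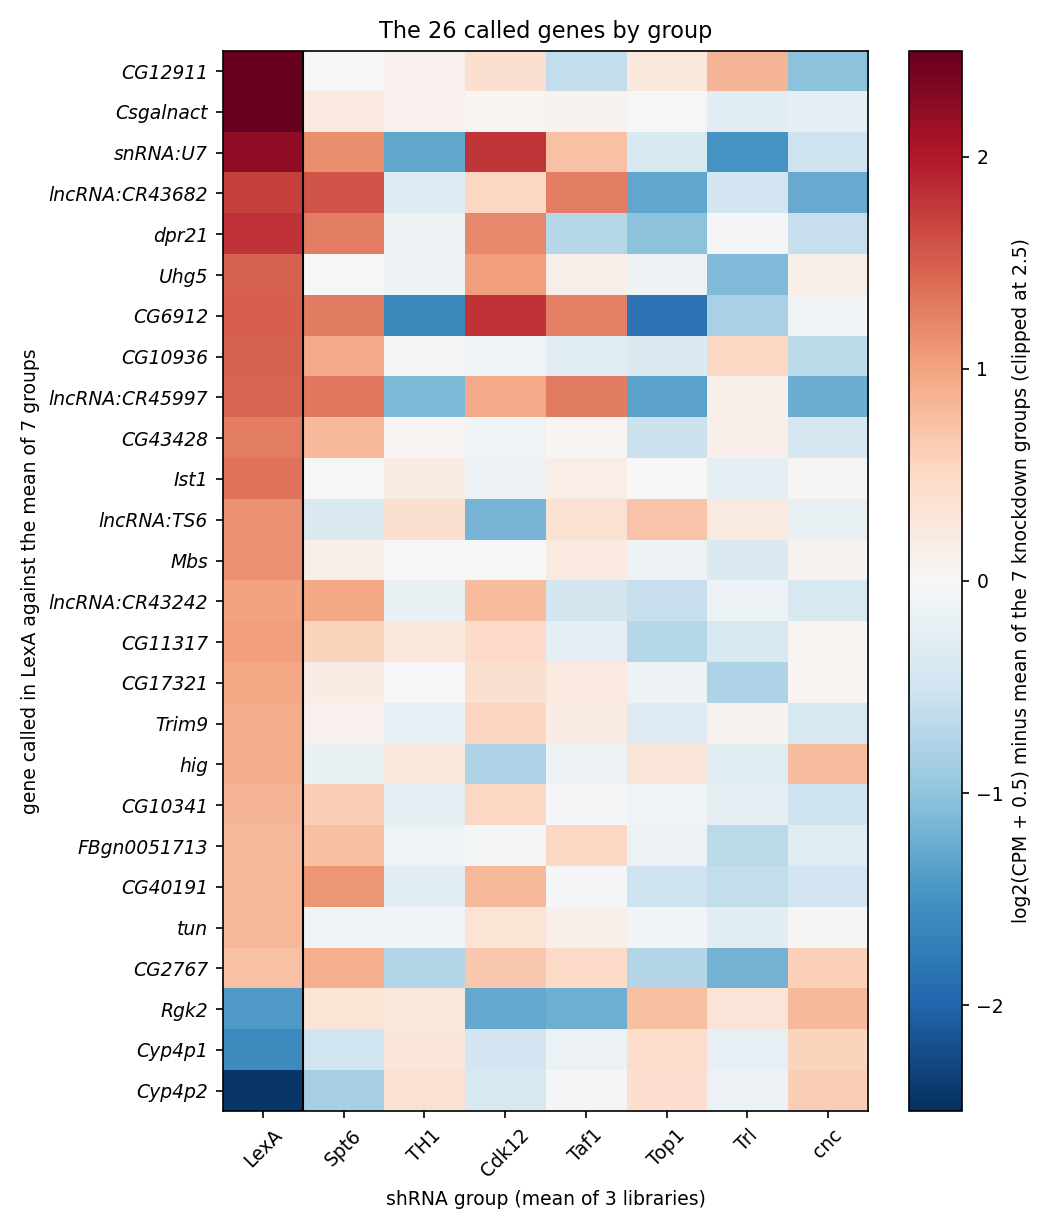
Log2(mean CPM + 0.5) of each group, minus the mean of the 7 knockdown groups, for the 26 called genes (rows) in LexA (left column) and the knockdown groups. Colour runs from blue (lower) to red (higher) and is clipped at 2.5. CG12911, Csgalnact, Mbs and Ist1 are high in LexA alone of these 8 groups. CG6912 and lncRNA:CR45997 are also high in Spt6, Cdk12 and Taf1, and CG40191 in Spt6 and Cdk12.

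Of the 26 called genes, 8 kept their call whichever LexA library was left out, namely Csgalnact, CG12911, Mbs, dpr21, Cyp4p2, Cyp4p1, lncRNA:CR45997 and snRNA:U7. With the 21 knockdown libraries as 1 group, the 6 genes called were CG12911, Csgalnact, Mbs, Ist1, tun and Cyp4p2, all among the 26.

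By position, 13 of the 26 called genes lie on 2R (10 higher and all 3 lower ones), where 19.9% of the tested genes lie. Another 6 lie on 2L, 3 on 3L, 3 on 3R and none on X, which holds 14.9% of the tested genes, and FBgn0051713 has no position in the annotation. Besides Csgalnact with CG12911 and Cyp4p2 with Cyp4p1, the called genes of 1 direction within 200 kb of each other were CG17321 with CG10341 on 2L (144539 bases apart) and Uhg5 with CG43428 on 2R (113080 bases apart). Of the 26, 19 are protein-coding, as are 84.5% of tested genes, and 15 overlap another gene, as do 47.7% of tested genes. The median log2 fold change was between 0.01 and 0.04 on each of the arms 2L, 2R, 3L, 3R and X.

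To see whether LexA stood apart from the other groups more than a knockdown group does, each of the 8 groups was set against the mean of the other 7 in the same fit. LexA had 26 calls. TH1 had 20 (0.134%), cnc 39 (0.262%), Top1 58 (0.39%), Spt6 63 (0.423%), Cdk12 75 (0.504%), Taf1 90 (0.605%) and Trl 5452 (36.6%). LexA thus had fewer called genes than 6 of the 7 knockdown groups, although these comparisons share libraries and their difference was not tested. The median absolute log2 difference of a gene from the mean of the other groups was 0.23 in LexA and between 0.20 (TH1) and 0.59 (Trl) in the knockdown groups. With LexA set against the groups singly, 16 genes were called against Spt6 (0.107%), 22 against Taf1 (0.148%), 29 against Cdk12 (0.195%), 30 against TH1 (0.202%), 43 against cnc (0.289%), 64 against Top1 (0.43%) and 379 against Trl (2.55%). The groups outside the comparison gave more calls than any of these, with 2450 against Spt5 (16.5%) and 1543 against dom (10.4%).

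**Figure D4:**
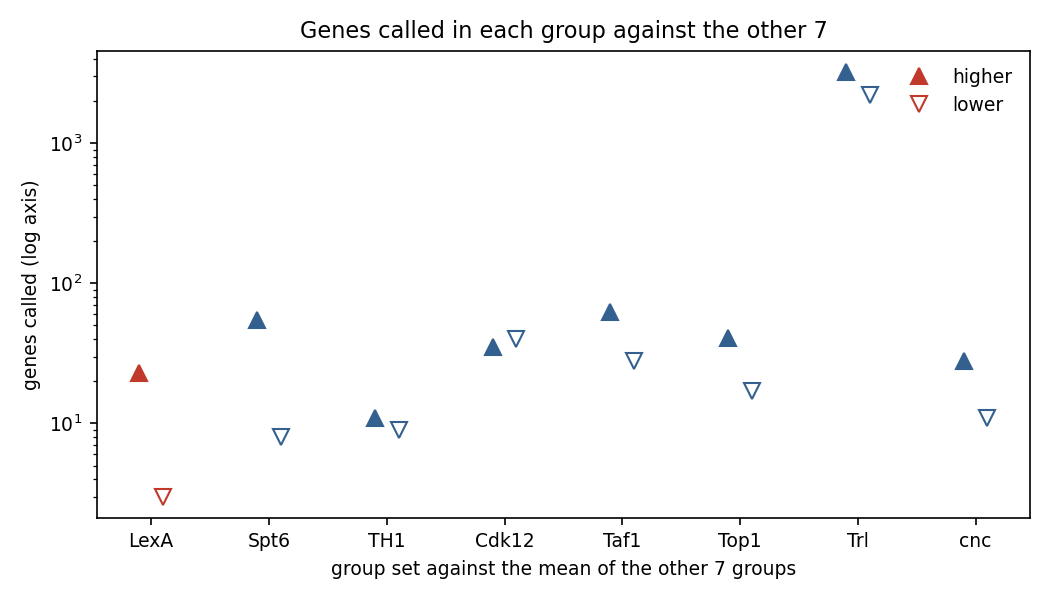
Number of genes called higher (filled triangles) and lower (open triangles) in each group against the mean of the other 7, on a log axis, with LexA in red at the left. LexA has 23 higher and 3 lower, TH1 has 11 and 9, and Trl has 3229 and 2223.

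None of the 8 marker genes of outer photoreceptors was called, by edgeR or by DESeq2, or reached an unadjusted p under 0.05. ninaE stood at 12869, 15110 and 11460 CPM in LexA, against 10424, 14316 and 31477 CPM at the lowest, median and highest knockdown library, well within their range (log2 fold change -0.18, SE 0.155, adjusted p 0.93 by edgeR). The highest ninaE values came from Top1, with a mean of 25815 CPM. Among the other markers, the channel gene trpl had 0.46 on the log2 scale (SE 0.263), norpA 0.34 (SE 0.286) and the arrestin gene Arr2 -0.31 (SE 0.194).

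The 9 target genes of the series were not called in LexA against the mean of the 7 groups, by edgeR or by DESeq2, and 2, Taf1 and Spt5, had an unadjusted p under 0.05. Taf1 came nearest, at 267, 258 and 562 CPM in LexA, against 123, 253 and 433 CPM at the lowest, median and highest knockdown library (log2 fold change 0.50, SE 0.187, adjusted p 0.52 by edgeR). Only replicate 3 stood above the knockdown libraries. The estimates were 0.30 for Spt5, 0.24 for TH1, 0.17 for Top1, 0.16 for dom, 0.10 for cnc, 0.04 for Spt6, 0.00 for Trl and -0.04 for Cdk12. The line marker genes w (0.06), y (-0.14) and v (-0.18), which transgenic stocks often carry as mutant or rescued alleles, were not called by edgeR. Of the same list, sc had -3.38 (SE 1.24, adjusted p 0.52) and was not called either. It had 1 count over the LexA libraries, against 0, 0.657 and 2.75 CPM at the lowest, median and highest knockdown library.

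Gene lists of photoreceptor function, other cell types, stress and metabolism held 635 distinct tested genes in 28 lists, and edgeR called none of them. Of these genes, 62 (9.76%) had an unadjusted p under 0.05, against 6.77% of all tested genes. DESeq2 called 2 of them, the immune peptides BomS2 and BomS6, and 67 of the 8248 genes to which it gave an adjusted p (0.812%). List medians of the log2 fold change ran from -0.54 to 0.39, with 14 lists above and 14 below the 0.02 of all tested genes. The members named in the next 2 paragraphs were chosen after their values were seen.

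Lists of photoreceptor and neuron function lay on both sides of all tested genes. The median was 0.21 for 36 phototransduction genes (LexA libraries 0.18, 0.31 and 0.24), 0.20 for 24 genes of the rhabdomere and apical membrane, and 0.20 for 29 genes of synapse and excitability. In each of the 3 lists LexA replicate 2 had the highest of the 3 values. With each group of the comparison set against the mean of the others, phototransduction had 0.26 in LexA, 0.22 in Taf1 and -0.49 in Trl. The rhabdomere list had 0.22 in LexA, 0.19 in cnc and -0.52 in Trl. LexA was the highest group in these lists, but for synapse and excitability it had 0.17, below Taf1 at 0.31, with Trl at -0.43. Trl, the lowest group in each of the 3 lists, is part of the mean that LexA was set against. Inner photoreceptor genes had a median of -0.0019 (16 genes) and markers of other neurons one of -0.19 (22 genes, 2 lower at an unadjusted p under 0.05), both below the median of all tested genes. Activity-induced genes had the highest median, 0.39 over 17 genes, with 5 members at an unadjusted p under 0.05, all higher (3.95% of all tested genes were higher at that p), and library medians of 0.08, 0.48 and 0.44. Hr38, a nuclear receptor induced by neuronal activity, stood at 677, 961.5 and 330.2 CPM in LexA, against 61.1, 179 and 838.5 CPM at the lowest, median and highest knockdown library, with wide overlap (log2 fold change 1.24, SE 0.473, adjusted p 0.56 by edgeR).

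Of the 11 lists of other cell types, 7 had a median below that of all tested genes. Support cells of antenna and bristle had the lowest median, -0.54 over 12 genes, and 4 of these, Obp99b, Obp99c, Obp56d and Obp56e, which encode odorant-binding proteins, had negative values at an unadjusted p under 0.05. The list's 14 markers in the files summed to 257, 152 and 250 CPM in LexA, against 111, 347 and 603 CPM at the lowest, median and highest knockdown library, so the groups overlapped. The median was -0.36 for fat body and hemocytes (24 genes), -0.28 for glia (19) and -0.24 for gut (19), and 1 of the 25 fat body and hemocyte markers had no count in any LexA library. In that list vkg, regucalcin, CG3505, Hml and Ppn had negative values at an unadjusted p under 0.05, and the yolk protein genes Yp1, Yp2 and Yp3 positive ones. The low medians of support cells, glia and gut were not particular to LexA. With each group set against the mean of the other 7, support cells had -0.52 in LexA and -0.76 in Trl. Glia had -0.25 in LexA and -0.32 in Trl, and gut -0.42 in LexA, -0.57 in Spt6 and -0.69 in Taf1. For fat body and hemocytes LexA was the lowest group, at -0.38, before Trl at -0.29. Against the mean of the 7 knockdown groups, the medians of this list were -0.04, -0.55 and -0.08 in LexA replicates 1, 2 and 3, so replicate 2 was far the lowest. The gut median was -0.01 without LexA replicate 2. That library had the lowest of the 3 medians in 14 of the 28 lists, with -0.83 for gut and -0.95 for mitochondrially encoded proteins, where replicates 1 and 3 stood at -0.25 and 0.44. The summed levels of cuticle and epidermis markers were 149, 127 and 130 CPM in LexA, against 139, 179 and 223 CPM, and those of the 20 markers of cone, pigment and corneal cells 1480, 1491 and 1376 CPM in LexA, against 949, 1395 and 1616 CPM.

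**Figure D5:**
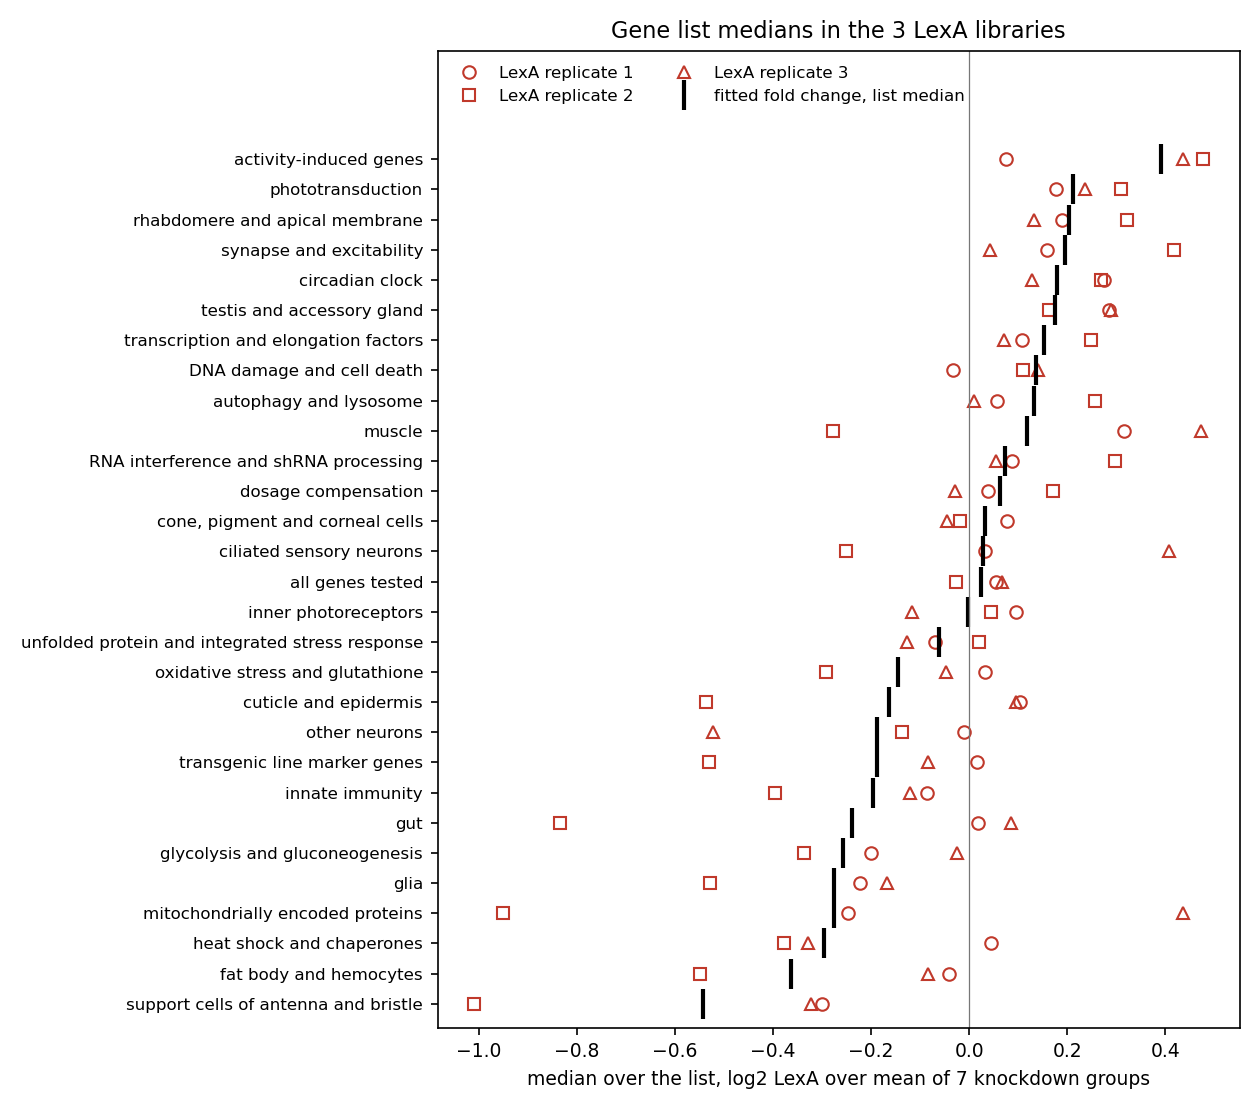
Median over each gene list of the log2 difference of 1 LexA library from the mean of the 7 knockdown groups (open symbols, 1 per LexA library) and of the fitted log2 fold change (black bars), for 28 lists and for all tested genes. Bars run from -0.54 (support cells of antenna and bristle) to 0.39 (activity-induced genes), and the squares of replicate 2 are the lowest of the 3 symbols in 14 lists.

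The bomanins BomS2 and BomS6, short secreted peptides of the Toll immune response, gave the smallest p among immune genes. BomS2 stood at 5.42, 1.42 and 4.34 CPM in LexA, against 2.58, 8.0 and 27.7 CPM at the lowest, median and highest knockdown library, and BomS6 at 5.60, 4.96 and 8.48 CPM, against 2.31, 15.5 and 40.3 CPM. In both, the LexA libraries overlapped the lower part of the knockdown range. The log2 fold changes were -1.35 (SE 0.315, adjusted p 0.075) and -1.20 (SE 0.339, adjusted p 0.25) by edgeR, and the adjusted p was 0.0030 and 0.022 by DESeq2. BomS2 averaged 3.72 CPM in LexA, 18.8 in Top1, 20.3 in cnc and 5.66 (Trl) to 10.2 CPM (TH1) in the other knockdown groups. BomS6 averaged 6.35 CPM in LexA, 5.34 in Trl, 6.52 in TH1 and 13.3 (Top1) to 31.25 CPM (Cdk12) in the others. The low level of BomS6 was thus not particular to LexA. Over the 61 tested immune genes the median was -0.20, with 6 lower and 2 higher at an unadjusted p under 0.05, where 2.82% of all tested genes were lower and 3.95% higher.

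The machinery that processes hairpins and the male dosage compensation complex, both shared by all groups, had no gene called by edgeR or DESeq2 and none at an unadjusted p under 0.05. The median was 0.07 over 15 genes of RNA interference and 0.06 over 9 genes of dosage compensation. No gene of the heat shock and chaperone list (20 genes, median -0.30) or of the oxidative stress and glutathione list (45 genes, median -0.15) reached an unadjusted p under 0.05 or was called by DESeq2. The heat shock median was -0.07 when Trl was left out of the mean.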

How the data were processed

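Nuclear RNA-seq counts of outer photoreceptors were used as the authors deposited them, 1 file of whole-number counts per gene for each library. Per the submitters' processing notes, reads were trimmed with Trimmomatic 0.39, aligned with HISAT2 to BDGP6 and counted with HTSeq. The strand setting, feature type and annotation release are not given in the sources used here. The 5 summary rows (51.8% to 74.5% of a library's reads in the 24 libraries) and transgene rows stayed out of library sizes and tests. Files of Cdk12 hold no LacZ and Clk rows. Of 17807 gene rows, 17710 matched the Ensembl annotation of BDGP6, from which positions come.

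The test was edgeR 4.0.16 (R 4.3.3), after its expression filter (minimum count 10, minimum total 15; 14888 genes) and TMM scaling, in 1 fit of a mean per group over all 30 libraries. LexA was compared with the equally weighted mean of the 7 groups by the two-sided quasi-likelihood test with Benjamini-Hochberg adjustment. Every adjusted p is from this test unless DESeq2 1.42.0 is named. The SE is the log2 fold change over the square root of F, and CPM use TMM library sizes. In simulated counts for this comparison over 14888 genes, 2%, 36%, 74% and 78% of genes changed by log2 0.5, 1, 2 and 3 were called. Reads carry no molecular identifiers, so depth covers counting error only. Genes were named by a rule: up to 12 called genes in each direction, by size of change, beyond all 7 group means in all 3 LexA libraries, with average log2 CPM 1 or more and a symbol other than a number or small RNA name; the 4 with the smallest p in each direction; up to 4 called members of each list; ninaE, the 9 targets, w, y and v. The other called genes, and list members that were not called, were named after their values were seen. The members of the comparison and the lists were chosen with earlier results of these data known. Of 710 listed symbols, 61 matched no row. Alternatives were other scalings, filters, fits, pool members, DESeq2, the replicate block and leaving out each library.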

Additional observations from a re-analysis of the deposited data

How the results depend on the processing

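Over 41 alternatives no called gene changed direction, 4 (Csgalnact, CG12911, Mbs and Cyp4p2) stayed called in all, and 22 lost their call in at least 1. Most alternatives lost the calls of hig (30), CG11317 (29) and FBgn0051713 (28). The counts of genes higher and lower in LexA, 23 and 3, were 5 and 1 with the 21 knockdown libraries as 1 group, 42 and 9 with reads outside features as covariate, 46 and 21 with DESeq2 (67 in all, with no adjusted p for 6640 genes), 38 and 5 in a fit of the 24 libraries, and 39 and 8 without Spt6 in the mean. Lower genes numbered 5 without Taf1 in the mean, with Spt5 and dom added, or with upper quartile scaling. Leaving out 1 library gave 9 to 26 higher and 2 to 5 lower. The replicate block gave 31 calls, 25 of them among the 26, with hig lost. Deviations of same-numbered libraries of LexA and a knockdown group correlated between -0.25 and 0.24 over 21 pairs. Of the pairs, 4 were over 0.1, all with Spt6 or Top1. With 3 libraries per group, these values cannot decide whether same-numbered libraries were made together.

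Genes with LexA above all knockdown libraries, 20 in the comparison as described, numbered 46 without Spt6, 39 with upper quartile scaling, and 20 to 87 with 1 library left out. Those with LexA below, 13 as described, numbered 22 without Cdk12, 20 without Taf1, 34 without Trl, 23 without a filter, and 14 to 69 with 1 library left out. In the fit of 24 libraries, calls against the other 7 groups were 43 for LexA, 128 for Cdk12, 90 for cnc, 115 for Spt6, 32 for TH1 and 93 for Top1, and LexA against single groups gave 50 for Cdk12, 78 for cnc, 121 for Top1 and 581 for Trl. With 1 LexA library left out, single comparisons gave 11 to 26 calls for Cdk12, 25 to 30 for cnc, 9 to 13 for Spt6, 14 to 23 for Taf1, 19 to 23 for TH1, 29 to 43 for Top1 and 34 to 128 for Trl. The causes were not tested. No alternative moved the median of all genes by over 0.1.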

Other observations

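The yolk protein genes, which fat body and ovary of females express most, were high in the LexA libraries and in a few others. Yp1 stood at 76.7, 66.1 and 28.4 CPM in LexA replicates 1, 2 and 3, against 0.606 CPM at the lowest, 1.63 at the median and 135 at the highest in the 21 knockdown libraries. The highest of those were Spt6 replicate 3 (135 CPM), Taf1 replicates 1 and 2 (91.6 and 50.8 CPM) and Cdk12 replicate 1 (27.4 CPM), so all 3 LexA libraries lay above 18 of the 21. The log2 fold change was 3.31 (SE 0.779, adjusted p 0.075 by edgeR). Yp2 stood at 22.6, 25.9 and 8.48 CPM in LexA, against a knockdown median of 1.29 and highest of 63.1 CPM (2.53, adjusted p 0.37), and Yp3 at 30.0, 30.6 and 16.0 CPM, against 8.76 and 75.2 CPM (1.09, adjusted p 0.62). The male-specific RNAs lncRNA:roX1 (0.06) and lncRNA:roX2 (-0.12), which coat the male X chromosome, were at 7283 to 10010 CPM and 422 to 486 CPM in LexA, within the knockdown range. The yolk protein genes are members of the fat body and hemocyte list, whose median was -0.36 over 24 tested genes, with 5 other members lower at an unadjusted p under 0.05. These genes were chosen after their values were seen, and no cause was tested.

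Of the 33 genes (0.222%) whose LexA libraries lay beyond all 21 knockdown libraries, 22 were not called, 11 on each side. CG18853 stood at 3.43, 2.13 and 4.93 CPM in LexA, against at most 1.89 CPM in the knockdown libraries (log2 fold change 2.12, adjusted p 0.062 by edgeR). CG31810 had no count in the LexA libraries, 0 of 18772842 gene counts, which allows up to 0.16 CPM (3 counts over the group), against 0.0684 CPM at the lowest and 0.471 CPM at the median knockdown library. The lowest knockdown values are under that limit, so LexA is not shown to lie below them for this gene. The N6-methyladenosine reader Ythdc1 stood at 886.5 to 1056 CPM in LexA, against at most 875.7 CPM in the knockdown libraries (0.55, adjusted p 0.30), and Nak, a kinase of endocytosis, at 329 to 395 CPM, against at most 303 CPM (0.56, adjusted p 0.19).

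LexA replicate 2 was at least 2-fold below all 23 other libraries in 94 genes, against 12 in LexA replicate 1 and 7 in replicate 3. In cnc replicate 3 the same count was 330.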
